A study of Mus musculus with 6 samples.

Results

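The transcripts of 9 enzymes of fatty acid breakdown (Hadha, Hadhb, Acadm, Acadl, Acadvl, Acads, Cpt2, Acaa2 and Bdh1) were followed in the livers of C57BL/6 mice. They were chosen by gene symbol from the 15953 genes of the deposited table, and all 9 were present once. RNA sequencing covered 3 livers from mice labelled Cgref1 KO and 3 from mice labelled Wild Type. The labels give the genotype, the strain and the tissue, and they name hepatocytes as the cell type, whereas the series design speaks of liver tissue. Age, sex, diet and feeding state are not stated in the sources used here. Nothing says how the knockout was made or whether the samples of a group came from separate litters or days, so p-values measure only the spread between these 6 samples.

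Mitochondrial beta-oxidation shortens fatty acids in repeated rounds, each of which removes a pair of carbons as acetyl-CoA. Long-chain acyl groups enter the matrix as carnitine esters and are returned to coenzyme A by carnitine palmitoyltransferase II, the product of Cpt2. Each round then begins with an acyl-CoA dehydrogenase matched to chain length, goes on with hydration and a further oxidation, and ends with a thiolase. In the fasting liver much of the acetyl-CoA becomes ketone bodies, and Bdh1 encodes the enzyme that interconverts acetoacetate and 3-hydroxybutyrate. Many genes of this route are known targets of the fatty acid receptor PPAR alpha.

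The gene annotation in the deposited table matched the mitochondrial part of this route and no peroxisomal step. All 9 genes carried a mitochondrial term for cellular component, and 0 carried a peroxisomal one. Of the 9, 8 were annotated to the KEGG pathway of fatty acid degradation, and 0 to the KEGG peroxisome pathway. The exception was Bdh1, which was annotated to the synthesis and degradation of ketone bodies and is an enzyme of ketogenesis, not of beta-oxidation itself.

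The targeted gene did not separate the groups. Cgref1 had 7, 12 and 10 estimated counts in the KO-labelled livers and 7, 7 and 19 in the wild type livers, too few to pass the filter on low counts. The genotype of each library therefore rests on its label. Library totals were 17649817 to 18366443 estimated counts in KO-labelled livers and 17627734 to 18185837 in wild type livers. The hepatocyte gene Alb took 5.01% to 6.75% of the counts in KO-labelled livers and 5.36% to 8.04% in wild type livers. The 10 hepatocyte markers, Alb among them, summed to 80800 to 104000 CPM (counts scaled to a common library size) in KO-labelled livers. In wild type livers they summed to 79000 to 112000 CPM, so the ranges overlapped. Another of them, Apoa1, stood at 11299.6 to 12940.5 TPM (the share of all transcripts) in KO-labelled livers and 7560.5 to 12426.3 TPM in wild type livers. The 10 Kupffer cell markers were all detected in every library. They summed to 323 to 344 CPM in KO-labelled livers and 257 to 281 CPM in wild type livers, ranges that did not overlap. Of these markers, Clec4f did not overlap, at 34.64 to 37 TPM in KO-labelled livers and 27.54 to 32.16 TPM in wild type livers. Vsig4 did overlap, at 20.18 to 23.05 TPM in KO-labelled livers and 20.44 to 22.76 TPM in wild type livers. The sums of the 8 cholangiocyte markers also did not overlap, at 43.4 to 46.5 CPM in KO-labelled livers and 36.4 to 41.9 CPM in wild type livers. Of these markers, 1 was at 0 in at least 1 library. Krt7 did overlap, at 0.30 to 1.09 TPM in KO-labelled livers and 0.22 to 0.77 TPM in wild type livers. So did Krt19, at 0.57 to 1.22 TPM in KO-labelled livers and 0.44 to 2.67 TPM in wild type livers. Among single genes, 6.19% of all tested had groups that did not overlap with KO-labelled livers higher. The 10 stellate cell markers summed to 228 to 270 CPM in KO-labelled livers and 267 to 354 CPM in wild type livers. The 10 sinusoidal endothelial markers overlapped, at 285 to 308 CPM in KO-labelled livers and 253 to 305 CPM in wild type livers. The sums of the lymphocyte and of the erythroid markers overlapped too. The 12 intestinal markers summed to 138 to 180 CPM in KO-labelled livers and 119 to 187 CPM in wild type livers, and 9 of the 12 were at 0 in at least 1 library, among them the brush border gene Vil1. In such bulk samples a change in hepatocyte number and a change in RNA per hepatocyte cannot be told apart. The part of these markers in the results on the enzymes was not tested.

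All 9 transcripts were among the abundant ones of these livers. Levels between genes are compared in TPM, the share of all transcripts, which is scaled by transcript length. Acaa2, which encodes the thiolase of medium-chain 3-ketoacyl-CoA, was the highest, with 897.4, 779.9 and 774.6 TPM in KO-labelled livers 1 to 3 and 865.3, 924.3 and 901.6 TPM in wild type livers 1 to 3. It ranked 143 among the 15953 genes by mean TPM and stood 4.20-fold above the next enzyme. Acaa2 alone made up 42.1%, 42.4% and 42.8% of the summed TPM of the 9 enzymes in KO-labelled livers and 40.6%, 44.3% and 42.8% in wild type livers, so that the KO-labelled livers lay inside the wild type range.

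Below Acaa2 the order of mean levels over the 6 livers was Acadvl (204.2 TPM), Acadm (198.6), Hadhb (152.1), Acadl (144.0), Hadha (136.2), Acads (112.3), Bdh1 (112.0) and Cpt2 (100.8). Cpt2, the lowest, ranked 989 among all genes. Some of these neighbours were level with each other. Acads exceeded Bdh1 in 3 of 6 livers, Acadvl exceeded Acadm in 4 of 6, and Hadhb exceeded Acadl, and Acadl exceeded Hadha, in 5 of 6. By contrast Acadm exceeded Hadhb, Hadha exceeded Acads, and Bdh1 exceeded Cpt2 in each of the 6 livers. Acadvl was above Acadm in 3 of 3 KO-labelled livers and in 1 of 3 wild type livers, a difference that was not tested. These counts include near ties, with Acadvl and Acadm at 213.01 and 212.89 TPM in KO-labelled liver 1. In wild type liver 2 they stood at 199.31 and 200.73 TPM.

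**Figure D1:**
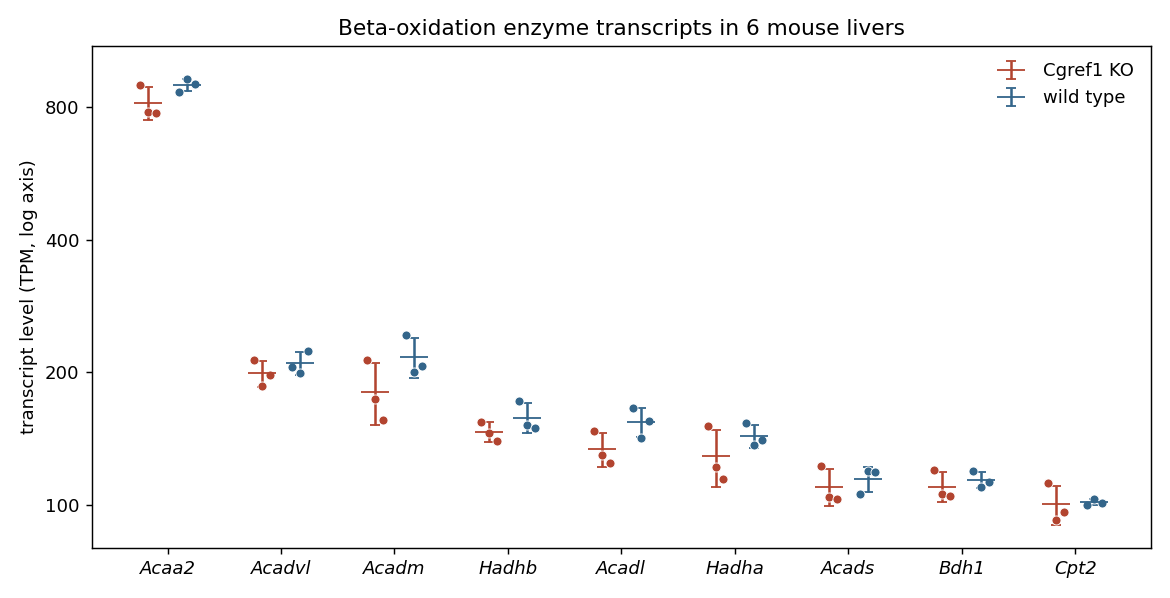
Transcript level in TPM (log axis) of the 9 enzymes, ordered by mean, with 1 point per liver, a horizontal bar at the group mean and an error bar of 1 SD (n = 3); KO-labelled livers are left of wild type livers for each gene. Acaa2 stands at 774.6 TPM or higher in each liver while the other 8 lie between 92.6 and 242.5 TPM.

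On the TPM scale the 9 transcripts summed to 2130, 1840 and 1810 in KO-labelled livers 1 to 3 and to 2129, 2087 and 2108 in wild type livers 1 to 3, or 0.181% to 0.213% of all transcripts. KO-labelled liver 1 was level with the highest wild type liver and the other two were lower than all 3 wild type livers. Genes at large also stood lower in KO-labelled livers on this scale. The median log2(TPM + 1) of all genes tested deviated by 0.0024, -0.10 and -0.05 from the mean of the 6 livers in KO-labelled livers and by 0.03, 0.06 and 0.07 in wild type livers. Between groups the median difference over all genes tested was -0.11 on the log2(TPM + 1) scale, and the median over the 9 enzymes was -0.10, with all 9 negative, running from -0.27 for Acadm to -0.02 for Cpt2. Comparisons between groups were therefore made on counts scaled by TMM factors, which remove such a shift. On that scale the median log2 fold change was -0.0022 over all genes tested and 0.03 over the 9 enzymes.

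None of the 9 enzymes passed the test between the groups. All 9 passed the filter on low counts, and 0 of 9 passed an adjusted p of 0.05 in edgeR's quasi-likelihood test, against 0.00831% of the 12033 genes tested. At an unadjusted p under 0.05 there were also 0 of 9, against 5.15% of all genes (2.95% higher and 2.2% lower in KO-labelled livers), and DESeq2 called 0 of 9, against 0.233%. The log2 fold changes (KO-labelled over wild type) ran from -0.13 to 0.12, with 3 of 9 negative, against 50.5% negative among all genes tested. In the authors' deposited table the 9 log2 fold changes ran from -0.13 to 0.11, and 0 of 9 had a q-value under 0.05, against 0.17% of all genes with a q-value there.

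The intervals set how large a difference these livers leave room for. Over the 9 enzymes the 95% intervals of the fold change reached down to 0.748-fold (Acadm) and up to 1.247-fold (Cpt2). The next lowest bound was 0.811-fold (Acadl) and the next highest 1.225-fold (Bdh1). Counting error was small beside this, because each enzyme had between 2361 and 16340 counts in a library, and it amounted to 0.81% to 1.98% of the mean.

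The entry enzyme gene Cpt2 had the largest positive value. It stood at 182.8, 164.1 and 163.9 CPM in KO-labelled livers and 158.1, 158.5 and 154.5 CPM in wild type livers. Each KO-labelled liver was above each wild type liver, though by little in livers 2 and 3. On the TPM scale the groups overlapped. The log2 fold change on the CPM scale was 0.12 (SE 0.09, 95% interval -0.08 to 0.32, edgeR adjusted p 0.984). Cpt2 was the only enzyme of the 9 whose groups did not overlap with KO-labelled livers higher, where 6.19% of all genes did so, and 0 of 9 did so with KO-labelled livers lower, where 4.63% of all genes did. Without KO-labelled liver 1 its log2 fold change was 0.06.

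The 4 acyl-CoA dehydrogenases open each round and differ by the chain length they prefer, from very long (Acadvl) through long (Acadl) and medium (Acadm) to short (Acads). Acadvl had 322.1, 306.0 and 310.4 CPM in KO-labelled livers and 301.5, 283.5 and 316.3 CPM in wild type livers, a log2 fold change of 0.06 (SE 0.09, interval -0.15 to 0.26, edgeR adjusted p 0.989). It was 0.024 without wild type liver 2 and 0.096 without wild type liver 3. Its groups overlapped, and the whole set of 6 livers spanned only 0.18 on the log2 scale. Acadl had 196.1, 187.4 and 173.0 CPM in KO-labelled livers and 213.5, 178.1 and 193.5 CPM in wild type livers. The highest was wild type liver 1 and the lowest KO-labelled liver 3, with the others mixed, and the log2 fold change was -0.07 (SE 0.10, interval -0.30 to 0.16, edgeR adjusted p 0.988). With single livers left out it ran from -0.13 (wild type liver 2) to -0.0089 (wild type liver 1).

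Acadm, the gene mutated in medium-chain acyl-CoA dehydrogenase deficiency in humans, varied most among the 9. It had 301.8, 266.7 and 230.5 CPM in KO-labelled livers and 332.7, 267.7 and 273.7 CPM in wild type livers. Wild type liver 1 was the highest and KO-labelled liver 3 the lowest, 0.53 apart on the log2 scale, while KO-labelled liver 1 stood above wild type livers 2 and 3. The log2 fold change was -0.13 (SE 0.13, interval -0.42 to 0.16, edgeR adjusted p 0.988). It was -0.23 without KO-labelled liver 1, -0.035 without KO-labelled liver 3 and -0.03 without wild type liver 1, so single livers moved it by more than 1.5 times. Acads had 156.1, 144.2 and 137.4 CPM in KO-labelled livers and 130.3, 142.8 and 141.8 CPM in wild type livers, with a log2 fold change of 0.08 (SE 0.09, interval -0.13 to 0.29, edgeR adjusted p 0.988), or 0.026 without KO-labelled liver 1, 0.028 without wild type liver 1 and 0.12 without KO-labelled liver 3. Here wild type liver 1, the highest for Acadm, was the lowest. The ratio of Acadm to Acads in TPM was 1.74, 1.66 and 1.51 in KO-labelled livers and 2.29, 1.69 and 1.73 in wild type livers, so that wild type liver 1 stood apart from the other 5.

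Hadha and Hadhb encode the alpha and beta subunits of the mitochondrial trifunctional protein, which carries out the later steps of each round on long chains. Hadha holds the hydratase and the 3-hydroxyacyl-CoA dehydrogenase, and Hadhb the thiolase. Hadha had 413.4, 363.7 and 326.5 CPM in KO-labelled livers and 407.1, 352.0 and 360.8 CPM in wild type livers, so that the wild type livers lay inside the KO-labelled range. The log2 fold change was -0.02 (SE 0.12, interval -0.28 to 0.24, edgeR adjusted p 0.994), and it was 0.04 without wild type liver 1 and 0.06 without KO-labelled liver 3. Hadhb had 217.1, 221.9 and 204.4 CPM in KO-labelled livers and 233.8, 201.0 and 196.4 CPM in wild type livers. Its KO-labelled livers lay inside the wild type range. The log2 fold change was 0.03 (SE 0.10, interval -0.20 to 0.25, edgeR adjusted p 0.994), and -0.02 without wild type liver 3.

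The subunit transcripts were at similar levels. The ratio of Hadha to Hadhb in TPM was 0.976, 0.840 and 0.820 in KO-labelled livers and 0.890, 0.898 and 0.941 in wild type livers. KO-labelled liver 1 was above the wild type range and the other two below it, so the means of 0.879 ± 0.085 and 0.910 ± 0.027 (SD, n = 3 each) were closer than the spread of the KO-labelled livers. In the deposited gene models these neighbours, on opposite strands, overlap by 8812 bp. The sources used here do not state whether counting used strand, so reads from the overlap may not be split correctly between them. RefSeq places the start of Hadha at 30154980, which leaves no overlap with Hadhb.

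These subunit genes also lie on the same chromosome as the targeted gene. In GRCm38 coordinates the deposited model of Hadha covers chr5:30118304-30164064 on the minus strand and that of Hadhb chr5:30155253-30184593 on the plus strand. Cgref1 covers chr5:30933143-30945480 on the minus strand. The gap from Hadhb to Cgref1 is 748550 bp and holds 13 genes of the deposited table. Acads is also on chromosome 5 (chr5:115103195-115119504, minus strand), at a gap of 84.16 Mb. Of the other enzymes, Acadm is at chr3:153922353-153944643, Acadl at chr1:66830832-66863309, Acadvl at chr11:70010183-70015428 and Cpt2 at chr4:107903982-107923589, all on the minus strand, and Bdh1 at chr16:31422297-31458901 on the plus strand.

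Hadha and Hadhb start 273 bp apart and run in opposite directions. Their promoter windows, taken from RefSeq on GRCm38.p6 as the 250 bases before each start, share 228 bases. The sequence before Hadhb is shown because it lies before the starts of both subunit genes. The windows of Acadm and Acadvl are shown beside it because they belong to the most variable and to the second least variable of the 9 transcripts. Capitals mark the hexamers GGGCGG, the core of the GC box bound by Sp1, and AGGTCA, the core sequence that nuclear receptors such as PPAR alpha bind as a direct repeat, each on either strand. A match is a description of the letters and not a shown binding site.
Hadhb, plus strand, chr5:30155003-30155252: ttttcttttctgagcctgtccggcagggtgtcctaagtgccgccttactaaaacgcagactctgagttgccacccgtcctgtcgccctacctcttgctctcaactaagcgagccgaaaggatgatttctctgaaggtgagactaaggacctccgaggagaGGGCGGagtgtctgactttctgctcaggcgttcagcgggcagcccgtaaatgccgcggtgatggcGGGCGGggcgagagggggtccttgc
Acadm, minus strand, chr3:153944644-153944893: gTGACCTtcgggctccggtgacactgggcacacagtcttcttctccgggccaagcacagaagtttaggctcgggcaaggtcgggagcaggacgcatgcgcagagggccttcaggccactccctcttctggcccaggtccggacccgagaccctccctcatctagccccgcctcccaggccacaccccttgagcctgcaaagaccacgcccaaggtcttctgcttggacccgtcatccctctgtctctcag
Acadvl, minus strand, chr11:70015429-70015678: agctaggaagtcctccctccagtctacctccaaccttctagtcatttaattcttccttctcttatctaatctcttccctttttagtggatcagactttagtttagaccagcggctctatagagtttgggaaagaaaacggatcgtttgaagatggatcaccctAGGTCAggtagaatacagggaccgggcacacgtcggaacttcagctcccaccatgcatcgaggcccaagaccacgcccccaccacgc

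The Hadhb window held 2 copies of GGGCGG and 0 of AGGTCA, whereas the Acadm and Acadvl windows each held 1 AGGTCA and 0 GGGCGG. Over 9 windows of 8 of the enzymes, 2 held AGGTCA, against 14% of the 32851 windows in the table, and 5 held GGGCGG, against 32.7%. These 9 are not separate sequences. The only GGGCGG site in the Hadha window is also in the Hadhb window, so it counts in both, and Bdh1 has 2 windows. No window was available for Acaa2. A direct repeat of AGGTCA, 2 copies on 1 strand with 1 base of any kind between them, was in 0 of the 9 windows, against 0.0335% of all windows, which says only that these letters are not in this stretch. The GC content was 49.6% to 68% and above the median of all windows (52.4%) in 7 of 9.

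Acaa2, which encodes the matrix thiolase that ends the rounds on medium-length chains, was the steadiest. It had 895.3, 843.5 and 806.1 CPM in KO-labelled livers and 833.9, 868.2 and 842.6 CPM in wild type livers. The wild type livers lay inside the KO-labelled range and the means were alike, at 848.3 ± 44.8 CPM in KO-labelled livers and 848.2 ± 17.8 CPM in wild type livers (SD, n = 3 each). The log2 fold change was 0.000125 (SE 0.10, interval -0.21 to 0.21, edgeR adjusted p 1.00), with a sign that changed in 15 of 18 alternative settings. Bdh1 had 262.9, 251.3 and 238.7 CPM in KO-labelled livers and 253.2, 226.7 and 231.5 CPM in wild type livers. Its groups overlapped, with a log2 fold change of 0.08 (SE 0.09, interval -0.13 to 0.29, edgeR adjusted p 0.988), or 0.048 without KO-labelled liver 1 and 0.12 without wild type liver 1.

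Averaged over the 9 enzymes, each group had livers above and below the mean of the 6 livers. Relative to each gene's mean over the 6 livers, the 9 enzymes deviated on average by 0.10, 0.0039 and -0.08 in KO-labelled livers 1 to 3 and by 0.06, -0.06 and -0.03 in wild type livers 1 to 3, on the log2 CPM scale. KO-labelled liver 1 was the highest of all 6 for 6 of the 9 enzymes and among the highest pair for 8 of 9. KO-labelled liver 3 was the lowest for 4 of 9. Wild type liver 1 was mixed, the highest for Hadhb, Acadm and Acadl but the lowest for Acads. The whole span of the average was 0.19, and the KO-labelled livers held both its ends.

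**Figure D2:**
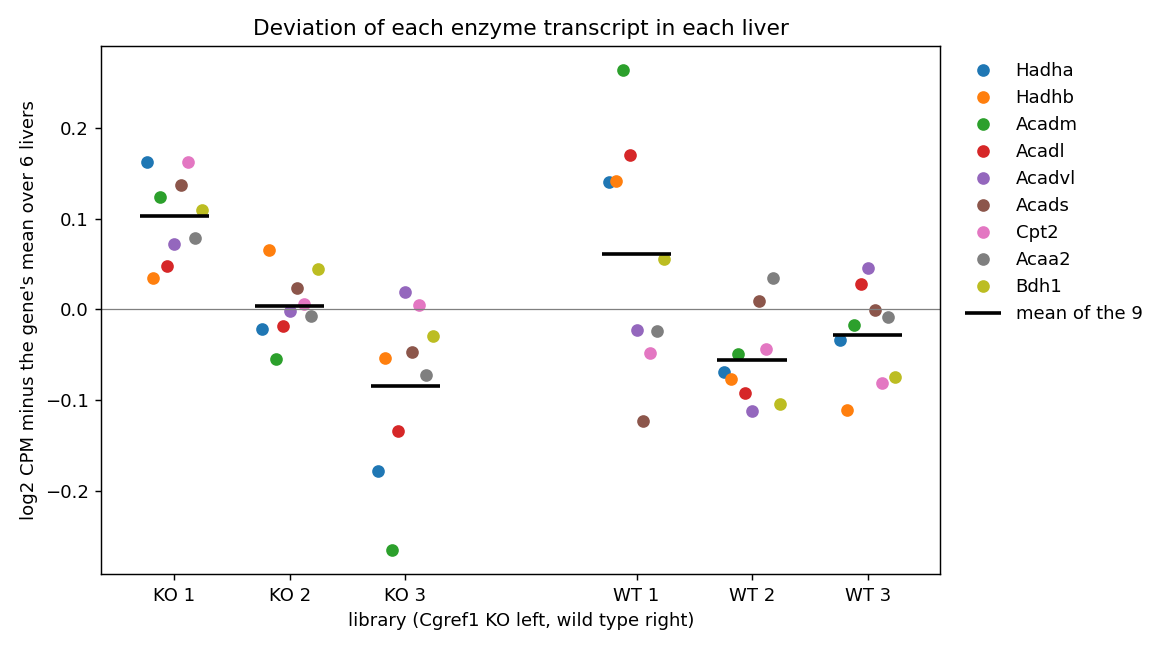
Deviation of each enzyme transcript from its own mean over the 6 livers (log2 CPM, TMM-scaled), with 1 coloured point per gene and a black bar at the mean of the 9; KO-labelled livers are on the left and wild type livers on the right, and points are spread sideways only to be seen. Acadm runs from -0.27 in KO-labelled liver 3 to 0.26 in wild type liver 1, and the mean of the 9 is highest in KO-labelled liver 1 and lowest in KO-labelled liver 3.

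Measured over all 6 livers, the 9 transcripts varied little. Their coefficients of variation (CV, the SD as a share of the mean CPM) ran from 3.59% for Acaa2 and 4.40% for Acadvl to 9.03% for Hadha and 12.5% for Acadm, with a median of 6.16%. The median CV was 13.4% over all 12033 genes tested and 9.42% over the 1262 genes at a mean of at least 100 CPM, where counting error adds less. All 9 enzymes were below the median of all genes tested and 8 of 9 below that of the abundant genes, with Acadm above it. Acaa2 had a lower CV than all but 1.35% of the genes tested. Among the genes at a mean of at least 100 CPM, 3.72% had a lower CV than Acaa2. Within groups, the CV of Cpt2 was 6.38% in KO-labelled livers and 1.42% in wild type livers, and that of Acadvl 2.65% in KO-labelled livers and 5.48% in wild type livers, so neither group was the steadier for every enzyme.

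**Figure D3:**
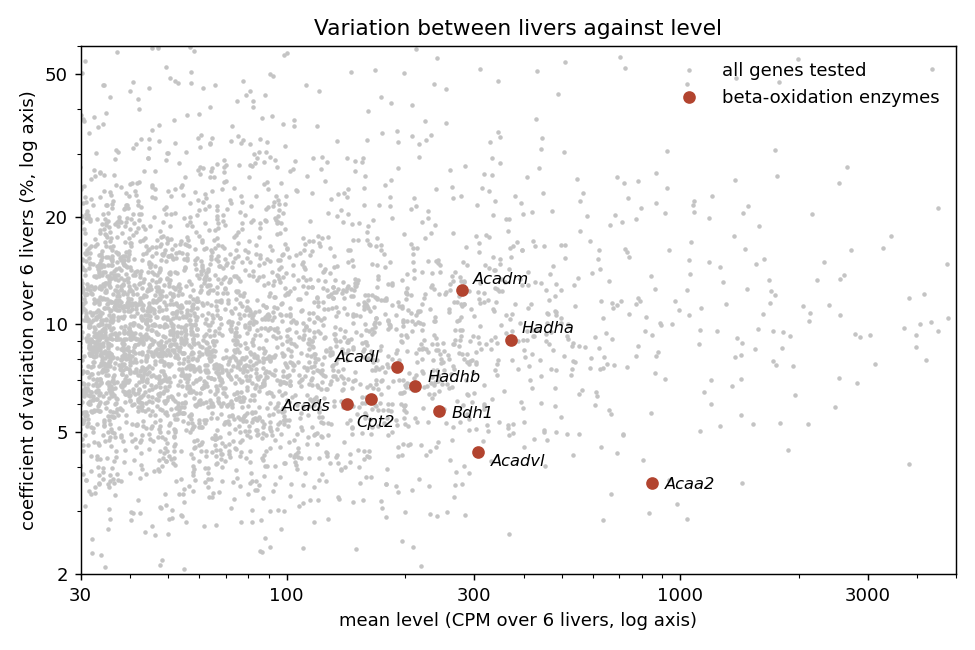
Coefficient of variation over the 6 livers (log axis) against mean level in CPM (log axis), with a grey point per gene tested and a red point per enzyme; the axes show the range around the enzymes, and genes outside it are not drawn. Acaa2 (3.59%) and Acadvl (4.40%) lie toward the lower edge of genes of like level, and Acadm (12.5%) lies highest of the 9.

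The genes whose profile over the 6 livers was most like the average of the 9 enzymes were Etfa, Usp9x, Trap1, Rhot1 and Atp5b. Likeness was taken as the mean absolute difference between deviations in log2 CPM, which was 0.0144 for Etfa and 0.0159 to 0.0185 for the other 4. Etfa encodes the alpha subunit of the flavoprotein that takes electrons from the acyl-CoA dehydrogenases, and it stood at 317.7 ± 16.4 CPM in KO-labelled livers and 313.7 ± 16.5 CPM in wild type livers (SD, n = 3 each). Usp9x encodes a deubiquitinase, Trap1 a mitochondrial chaperone, Rhot1 a GTPase of the outer mitochondrial membrane and Atp5b the beta subunit of ATP synthase. The measure favours genes that vary little, and each of the 5 had a log2 fold change between -0.01 and 0.04.

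The other genes of the route were read from 5 lists that hold 72 genes, of which 70 were tested. None of the 70 passed the edgeR threshold, and 9 had an unadjusted p under 0.05 (6 higher and 3 lower), against 5.15% of all genes. In the carnitine shuttle 0 of 6 tested genes passed, 5 had positive values and the median was 0.12, against -0.0022 over all genes tested. Among the 5, Cpt1b and Slc25a29, named here only for their low levels, had means of 0.587 and 2.10 CPM (SE 0.48 and 0.53). The median of so few genes is therefore loose. Cpt1a, the gene of the outer-membrane step that controls entry of long chains, had 115.7, 118.3 and 114.6 TPM in KO-labelled livers and 83.2, 109.7 and 108.8 TPM in wild type livers. Its groups did not overlap, but wild type liver 1 lay far below the other two. The log2 fold change on the CPM scale was 0.35 (SE 0.12, edgeR adjusted p 0.903), and 0.23 without wild type liver 1. The ratio of Cpt1a to Cpt2 in TPM was 1.03, 1.28 and 1.19 in KO-labelled livers and 0.832, 1.06 and 1.08 in wild type livers, ranges that overlap. For Slc25a20, which encodes the carnitine carrier of the inner membrane, the fitted value was 0.04 (SE 0.09). For Crat, which encodes carnitine acetyltransferase, it was -0.46 (SE 0.21). The Crat value was -0.29 without wild type liver 3 and -0.30 without KO-labelled liver 3, but -0.58 without wild type liver 2 and -0.69 without KO-labelled liver 1.

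Among 17 further genes of mitochondrial beta-oxidation 0 passed, with 6 positive and 11 negative values and a median of -0.03. Etfb, the partner of Etfa, and Hsd17b10, which encodes a 3-hydroxyacyl-CoA dehydrogenase, were at -0.0010 (SE 0.09) and 0.03 (SE 0.10) on the log2 scale. Acot13, which encodes a thioesterase, had the smallest p of the list. It stood at 44.7 ± 2.90 CPM in KO-labelled livers and 58.3 ± 2.08 CPM in wild type livers (SD, n = 3 each), a log2 fold change of -0.39 (SE 0.09, edgeR adjusted p 0.739), and its groups did not overlap. In the ketone body list 0 of 8 passed, with 4 positive and 4 negative values. The thiolase gene Acat1 had a log2 fold change of -0.14 (SE 0.13, edgeR adjusted p 0.988), with overlapping groups, and -0.027 without wild type liver 1. Bdh2, a cytosolic relative, had -0.43 (SE 0.16, edgeR adjusted p 0.918).

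Of 20 peroxisomal genes 0 passed, with 8 positive and 12 negative values, a median of -0.05 and values from -1.25 to 0.37. At an unadjusted p under 0.05 in edgeR there were 4 of 20, all higher in KO-labelled livers, against 2.95% of all genes higher and 2.2% lower. The groups of each of the 4 did not overlap, as held for 6.19% of all genes with KO-labelled livers higher. With KO-labelled livers lower, 0 of 20 did not overlap, against 4.63% of all genes, a share too small to read much from 20 genes. These 4 were Acox3, Phyh, Acaa1a (0.30, SE 0.13) and Amacr (0.32, SE 0.12). Acaa1a, a thiolase gene, and Amacr, a racemase gene, were named after their values were seen. The count of 4 also rests on few genes and on the scaling. With library totals Phyh was at 0.20 (edgeR unadjusted p 0.073) and Acox3 at 0.29 (edgeR unadjusted p 0.029). On log2(TPM + 1), where the median of all genes tested was -0.11, Phyh was at 0.14 and Acox3 at 0.21 (limma unadjusted p 0.23 and 0.082). Phyh, which encodes the hydroxylase that starts phytanic acid breakdown, had 2400, 2131 and 2105 TPM in KO-labelled livers and 2039, 2029 and 1936 TPM in wild type livers. Its groups did not overlap, and the log2 fold change was 0.28 (SE 0.10, edgeR adjusted p 0.918). Acox3, an acyl-CoA oxidase gene, had 0.37 (SE 0.11, edgeR adjusted p 0.850) and Scp2, for sterol carrier protein and a thiolase, 0.11 (SE 0.12). Acaa1b, a peroxisomal thiolase gene, had 1077, 791.6 and 592.5 TPM in KO-labelled livers and 1216, 1080 and 1113 TPM in wild type livers. KO-labelled liver 1 lay just under the lowest wild type liver and the other two further below, whereas on the CPM scale the groups overlapped, with a log2 fold change of -0.34 (SE 0.18, edgeR adjusted p 0.974), which was -0.55 without KO-labelled liver 1 and -0.16 without KO-labelled liver 3. Acaa1b is a near copy of Acaa1a, so the split of reads between them is uncertain.

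Of 19 tested regulators 0 passed, with 10 positive and 9 negative values and a median of 0.01. Acacb encodes the acetyl-CoA carboxylase whose product, malonyl-CoA, inhibits the Cpt1a enzyme. It had 54.5 ± 2.49 CPM in KO-labelled livers and 95.9 ± 17.7 CPM in wild type livers (SD, n = 3 each). The log2 fold change of -0.81 (SE 0.13) did not pass in edgeR (adjusted p 0.341) but did in DESeq2 (adjusted p 0.000459). In edgeR the Acacb value was -0.95 without wild type liver 2, -0.71 without wild type liver 1 and -0.49 without wild type livers 1 and 3. Creb3l3, a transcription factor gene of hepatic lipid metabolism, had 0.32 (SE 0.10, edgeR adjusted p 0.856), the PPAR partner gene Rxra 0.13 (SE 0.10) and Hnf4a 0.04 (SE 0.12). The median CV over the 6 livers was 21.6% in the carnitine shuttle list, 10.2% in the further mitochondrial list, 17% in the ketone body list, 14% in the peroxisomal list and 18.6% among the regulators, beside 6.16% for the 9 enzymes. The lists were not matched on level, and the differences in CV were not tested.

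**Figure D4:**
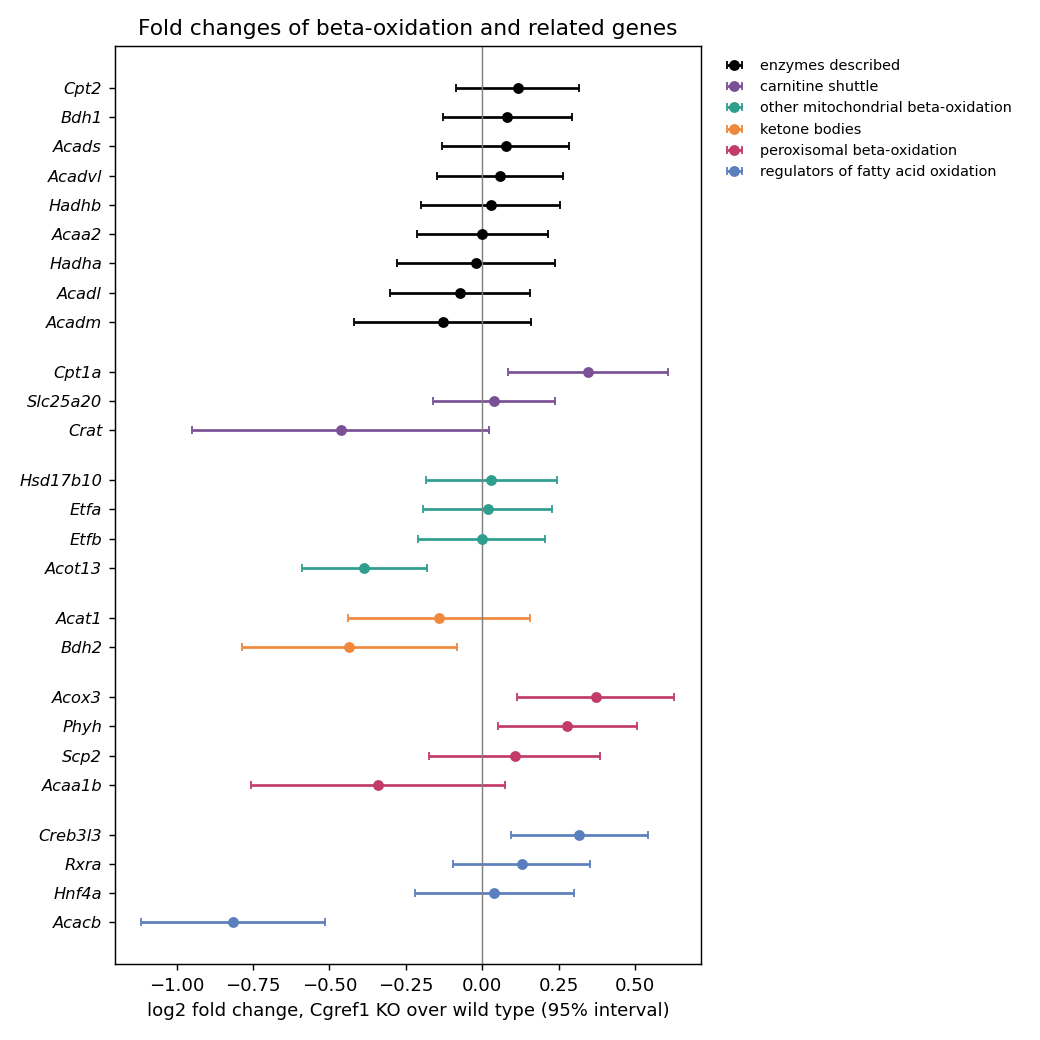
Log2 fold change, KO-labelled over wild type, with its 95% interval from edgeR for the 9 enzymes (black) and for genes named from the 5 related lists (colours). The 9 enzymes lie between -0.13 and 0.12 with intervals that include 0, and Acacb lies lowest at -0.81.

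In the deposited annotation, the KEGG pathway of fatty acid degradation held 35 tested genes beyond these enzymes. Of them 0 passed, against 0.00831% of all genes tested, and 5 had an unadjusted p under 0.05, against 5.15% of all. There were 14 positive and 21 negative values, and the median log2 fold change was -0.03 and the median CV 15.5%. The PPAR signalling pathway, which lists Acadl, Acadm and Cpt2 among the 9, held 61 other tested genes, of which 0 passed and 12 had an unadjusted p under 0.05, with 31 positive and 30 negative values.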

How the data were processed

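Messenger RNA from 3 KO-labelled and 3 wild type mouse livers was sequenced after bubble adaptor ligation and circularisation, per the labels' protocols. HISAT, Bowtie2, RSEM and DESeq2 are named in the submitters' processing notes, with no versions or settings, and no strand setting is stated in the sources used here. The authors deposited expected counts (92.3% to 92.9% whole numbers), TPM values and FPKM values per gene and library, per the file headers. The deposited log2 fold change, p-value and q-value of the authors' DESeq2 comparison were used only where named; the deposited columns of group means, and those of single-library comparisons with a log2 fold change, p-value and FDR score, were not used, and 18 columns in all belong to no single sample. Columns were matched to samples by the letters in the labels' descriptions. Chromosome accessions in the table are those of GRCm38.

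Counts were rounded, genes kept by filterByExpr (minimum count 10; 12033 genes), scaled by TMM factors (0.955 to 1.05) and tested in edgeR 4.0.16 (R 4.3.3) with the robust quasi-likelihood test and Benjamini-Hochberg adjustment over all genes, at 0.05. Intervals are at 95%. The alternatives used DESeq2 1.42.0, limma 3.58.1, other scalings, filters and units, a replicate block and left-out libraries. The edgeR test was also run on simulated counts, with an outcome that is not reported here. The 9 enzymes and all lists were chosen with earlier results of these data known. Named pathway genes are the 3 with the highest mean TPM and the 1 with the smallest p in each list, and any past the threshold; values of some of them are not reported here. Like genes follow the distance given in the text.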

Additional observations from a re-analysis of the deposited data

How the results depend on the processing

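No enzyme of the 9 passed the threshold in any of the 18 alternatives (0 each time), and Acadm kept its negative sign in all of them. The count of all genes called, 1 as reported, was 0 with a filter at a mean of 5 CPM, 28 in DESeq2, 34 with the replicate block, 0 without wild type replicates 1 and 3 together, and 1 to 5 with single libraries left out (5 without KO-labelled replicate 1). The median of the 9 enzymes, 0.03 as reported, was -0.053 with library totals, -0.10 on log2(TPM + 1), -0.11 on log2(TPM + 0.1) and -0.052 on log2(FPKM + 1), scales on which the median of all genes tested also moved (to -0.084, -0.11, -0.13 and -0.059). It was -0.0068 to 0.06 with single libraries left out.

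Values near 0 changed sign. Acaa2 was -0.0054 with DESeq2 size factors, -0.011 with upper-quartile factors, -0.0054 without a filter, -0.0030 with the 5 CPM filter, -0.0054 in DESeq2, -0.00086 in limma-voom and -0.0010 with the replicate block. With library totals Hadhb, Acadvl, Acads and Acaa2 were -0.053, -0.023, -0.0067 and -0.082, and on log2(FPKM + 1) they were -0.052, -0.023, -0.0070 and -0.084. On log2(TPM + 1) Hadhb, Acadvl, Acads, Cpt2, Acaa2 and Bdh1 were -0.10, -0.076, -0.059, -0.020, -0.14 and -0.052, and on log2(TPM + 0.1) they were -0.11, -0.076, -0.060, -0.021, -0.14 and -0.052. Without wild type replicates 1 and 3 Hadha, Acadl and Acaa2 were 0.050, 0.046 and -0.047. With single libraries left out Hadha ran from -0.11 to 0.058, Hadhb from -0.020 to 0.10 and Acaa2 from -0.040 to 0.036. The cause was not tested. Of 19 named pathway genes 10 changed sign in some setting, all within -0.27 to 0.20; Acacb passed in DESeq2 and with the replicate block (-0.80, adjusted p 0.0115).

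Deviations of same-numbered samples correlated across genes at 0.274, 0.0571 and 0.337, not all above a limit of 0.1, so the numbers were not taken as pairs. Each sample did correlate best with its own number, and the deposited single-library comparisons match same-numbered samples. These correlations rest on 3 samples per group and do not settle whether the samples were paired. With the replicate block 34 genes were called, and 0 of the 9 enzymes. Counting error was at most 1.98% of the mean for these transcripts. The SEs were derived from the quasi-likelihood test, in which edgeR moderates dispersions over all genes. An interval can therefore be wider than a gene's own spread between livers. edgeR's separate estimates of biological CV were 11.4% to 14.0% for the 9 enzymes and 15.8% in common.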
